A study of Homo sapiens with 3 samples.

Results

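The baseline transcriptome of T47D cells was described from the control library alone. A gene entered the baseline set when its quantification status was OK, its level was at least 1 FPKM and the deposited lower confidence bound was above 0. FPKM, fragments per kilobase of transcript at a common depth, is scaled by length. Levels are set side by side between genes on that scale, and how far length still affects them was not tested. Of the 58039 genes in the deposited table, 10764 met the rule (18.5% of all genes), and 10077 of them were protein-coding, of 19737 protein-coding genes (51.1%). The members were chosen by the FPKM and the lower bound of this same library, so these counts describe it and nothing was read from them. All ranks below are among the 10077 protein-coding members, with rank 1 the highest level.

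T47D is an established human breast carcinoma line of luminal type, studied for its estrogen and progesterone receptors. The study sequenced total RNA of T47D cells from 1 control and 2 cultures in which hairpin RNAs targeted ERINA, a long noncoding RNA. Lentivirus carried the constructs and puromycin selected the stable cells, per the labels. The labels disagree on the control, which one field calls shCtrl while the shRNA field reads None, so whether it carried a control hairpin could not be settled. Selected cultures of this kind are pools or clones grown in puromycin, and which of these the control was is not given in the sources used here. The columns of the knockdown cultures were not used for any value below. There is 1 control library and no replicate, so no test was made. How the deposited intervals were computed, and whether the other libraries entered them, is not given in the sources used here. What spread they cover is therefore not known, and their overlap is given as a description.

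The mammary duct has an inner luminal layer, whose cells carry keratins 8, 18 and 19, and an outer basal layer with keratins 5 and 14. A share of luminal cells carries the estrogen receptor (ESR1), which with the pioneer factor FOXA1 and the transcription factor GATA3 drives a program that includes the progesterone receptor (PGR). Luminal cells are also secretory, and the apocrine product PIP, prolactin-induced protein, is induced by androgen and prolactin. The abundance of a transcript in steady state reflects its synthesis and its decay together, and RNA levels do not give protein levels.

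The depth was estimated at 32700000 fragments (interquartile range 32300000 to 33400000), from 104 genes whose bounds fit a single fragment. The estimate assumes that an upper bound of 3 times the FPKM marks 1 fragment, and it uses the annotated transcript length. That assumption was not tested, and the values that follow from the depth rest on it. At this depth 1 FPKM equals 32.7 fragments per kilobase of transcript. A listed 0 allows a level of up to 0.0916 FPKM for a transcript of 1 kilobase, the limit that 3 fragments set, for counting error only. The width of the deposited interval on each side of the FPKM was at least 32.3% of it, with a median of 49.8%. The short RNAs RMRP and RPPH1, the RNA parts of RNase MRP and RNase P, summed to 134662 FPKM, 18.7% of the summed FPKM of the set. Shares below are therefore of the protein-coding sum.

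Of the 5 markers that define hormone receptor-positive luminal cells here, 4 met the rule and ESR1 did not. PIP was listed at 3346 FPKM (deposited interval 2235 to 4457), rank 3. KRT19, a keratin of simple epithelia, stood at 3152 FPKM (2021 to 4282), rank 5. GATA3 was listed at 43.4 FPKM (22.9 to 64.0), rank 2221, and PGR at 41.4 FPKM (11.4 to 71.5), rank 2332. The 2 transcription factors thus stood within the top 22.04% and 23.1% of the members, whereas PIP and KRT19 were among the highest genes of all. ESR1 was listed at 16.8 FPKM with an interval of 0 to 41.3, and left the set through its lower bound although its level was above that of the median member, 15.6 FPKM. Its locus (chromosome 6, 151656691 to 152129619, plus strand, GRCh38) holds 7 listed genes and 15 annotated transcripts. All 5 markers were thus listed above the level of the median member, with an interval that does not exclude 0 for ESR1. These are the same values that chose the set, and they are given as a description.

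Markers of other cell types had lower sums than the luminal ones. Fibroblast markers summed to 6.16 FPKM over 6 genes, of which 5 were under 1 FPKM, and COL3A1 was at 0. The 4 endothelial markers summed to 0.0208 FPKM, with CDH5 and CLDN5 at 0. The 5 blood markers summed to 4.08 FPKM, with PTPRC, CD3E and HBB at 0 and the other 2 above 1 FPKM, and the 4 adipocyte markers summed to 0.976 FPKM, with LEP at 0. The 6 basal and myoepithelial markers summed to 12.2 FPKM, of which ACTA2, smooth muscle actin, gave 9.99 FPKM. KRT5 stood at 0.323 FPKM and KRT14 at 0.0522 FPKM. Outside these 6, the basal genes CDH3 and ITGB4 were at 48.1 and 36.6 FPKM, near the levels of GATA3 and PGR. The full basal and myoepithelial list of 23 genes summed to 142 FPKM. The 5 luminal markers summed to 6599 FPKM, most of it from PIP at 3346 FPKM and KRT19 at 3152 FPKM. GATA3, PGR and ESR1 were at 43.4, 41.4 and 16.8 FPKM, so the sums depend on which markers were listed. In bulk RNA a few cells of another type and a low level in every cell cannot be told apart.

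Levels of the protein-coding members spanned 1.00 to 5075 FPKM. Their median was 15.6 FPKM, with 6.50 FPKM at the lower and 38.3 FPKM at the upper quartile. Of the members, 6418 (63.7%) reached 10 FPKM, 879 (8.72%) reached 100 FPKM and 63 (0.625%) reached 1000 FPKM. A total of 407 genes held 50.01% of the protein-coding FPKM, and the 100 highest held 30.1%. The order was loose, since the interval of a member overlapped those of a median of 5168 other members (51.3%). PGR, at rank 2332, could lie anywhere from rank 668 to rank 7249 by overlap of intervals, and GATA3 from 765 to 5176. At the top the order was tighter: the interval of PIP overlapped those of 40 other genes, which allows ranks 1 to 41.

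**Figure D1:**
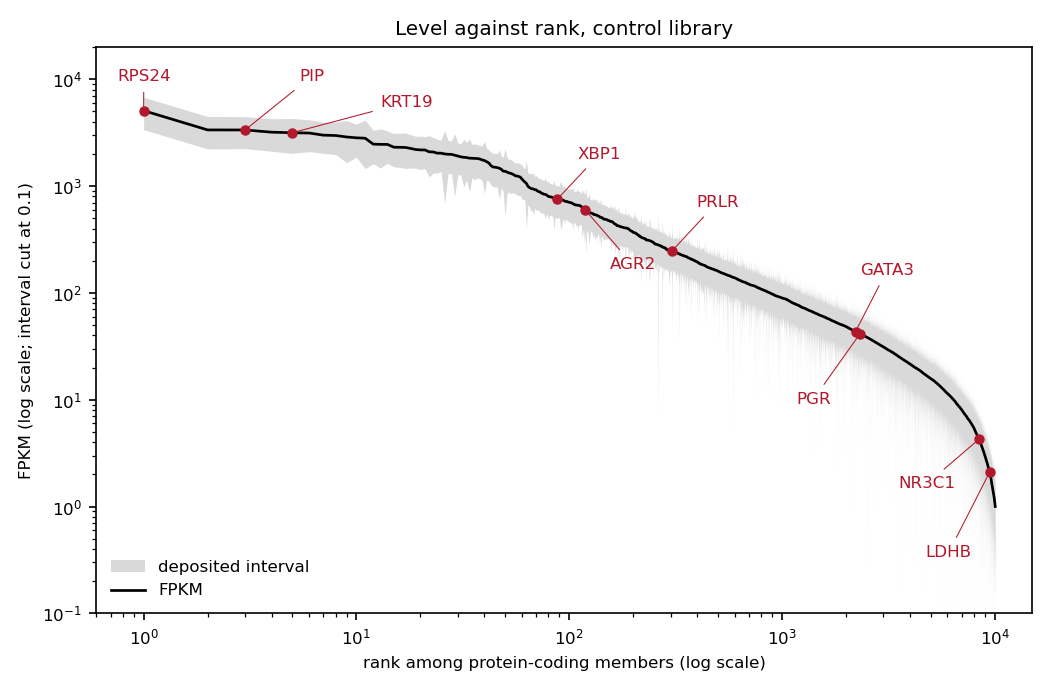
FPKM of each protein-coding member of the control library (black line, log scale) against its rank (log scale), with the deposited interval in grey and 10 named genes in red. PIP (3346 FPKM) and KRT19 (3152 FPKM) sit on the upper shoulder, PGR (41.4 FPKM) and GATA3 (43.4 FPKM) in the middle, and NR3C1 (4.26 FPKM) and LDHB (2.09 FPKM) near the lower end.

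Among the 30 highest protein-coding genes, 21 encoded ribosomal proteins, led by RPS24 at 5075 FPKM (3371 to 6778). PIP, a secreted aspartyl-type protease found in apocrine fluids, was the highest of the other 9. The keratin genes KRT19, KRT8 (2800 FPKM, 1454 to 4146) and KRT18 (1996 FPKM, 689 to 3303) encode the intermediate filaments of simple epithelium, and the 3 together took 1.53% of the protein-coding FPKM. KRT8 and KRT18 overlap each other on opposite strands of chromosome 12, and the strand setting of the counting is not given in the sources used here. GAPDH, the glycolytic dehydrogenase, stood at 2303 FPKM (1493 to 3114), and ACTB, cytoplasmic actin, at 2296 FPKM (1461 to 3131). MGP, matrix Gla protein, a secreted inhibitor of calcification, reached 2089 FPKM (1219 to 2959). RACK1, a scaffold protein of the small ribosomal subunit, was listed at 2083 FPKM (1321 to 2845), and NPM1, a nucleolar chaperone of ribosome assembly, at 1940 FPKM (799 to 3081). Each of the 30 had an interval that overlapped those of at least 11 other genes, so their exact order is not fixed.

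The ribosomal members among these 30, from the highest down, included RPS24, RPL19, RPL35A, RPL35, RPS27, RPL32, RPLP0, RPS18, RPL13, RPL4, RPL7A, RPL38, RPL8, RPL30, RPL37A, RPL23, RPS19, RPS2, RPS23 and RPL12, the last at 1902 FPKM. Of 85 listed ribosomal protein genes, 82 met the rule (96.5%), with a median of 921 FPKM over all 85, against 51.1% and a median of 3.13 FPKM over all protein-coding genes. They held 20.1% of the protein-coding FPKM. The 3 outside the set were RPL10L at 0.226 FPKM and RPL3L at 0.0757 FPKM, both tissue-restricted copies, and RPS29, whose deposited status was HIDATA and not OK. RPS26 was the lowest member at 13.0 FPKM. These genes have many processed copies in the genome, and how shared reads were assigned is not given in the sources used here.

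Ribosomal protein genes of vertebrates are known for transcription starts inside a run of pyrimidines, the 5′ terminal oligopyrimidine tract that ties their translation to growth signals. The starts of 6 of the highest genes are shown because that shared feature can be seen in them. Each line gives 22 bases around the RefSeq start (GRCh38.p14), and the capitals mark the longest run of C and T within the searched bases, from 5 before to 10 after the start. The run can go on beyond them in lower case.
RPS24 (chr10:78033855-78033876, plus strand): tcgtggTTCTCTTTTCCTcctt
RPL35 (chr9:124861944-124861965, minus strand): cctaCTTCCTCTTTCCCTcgga
RPL7A (chr9:133348210-133348231, plus strand): tccCTTTCCTTTCTCTCTcctc
RPL38 (chr17:74203670-74203691, plus strand): gtctcgTTCTTTTTCgtccttt
RACK1 (chr5:181243893-181243914, minus strand): tttTCTCTCTCTCTTTCactgc
RPS23 (chr5:82278341-82278362, minus strand): gtgCTTCTCTCTTTCgctcagg

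RefSeq gave a single promoter for 11265 of the 19737 protein-coding genes and for 5871 of the 10077 members (58.3%), and sequence features were read from these. A run of at least 6 pyrimidines on the sense strand in that window was found at 46 of 55 ribosomal protein members (83.6%). The run was found at 13.6% of all protein-coding genes with 1 promoter. By level, it was found at 12.9%, 12.6%, 11.6% and 19.7% of the members from the lowest to the highest of 4 equal bins, and at 37 of 63 (58.7%) of the 100 highest. The share was thus about level over the lower 3 bins and higher in the top bin. How much of the share among the 100 highest comes from ribosomal protein genes, which were 21 of the 30 highest, was not computed.

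A TATA box, which positions the start of transcription at many tissue-restricted genes, was the other feature examined. The word TATAAA and its variants that end in AG (TATAAG) or read TATATA in full, which can overlap, were searched on the sense strand with their first base 40 to 20 bases before the start. The promoters of 6 genes are shown. The first 4 are from genes with a high level here, and were picked, so they do not stand for all members with such a word. After PIP, the highest of those members were RPS27 (2992 FPKM), RPLP0 (2877 FPKM), RPS18 (2826 FPKM) and EEF1A1 (1856 FPKM). The last 2 promoters are from genes of another tissue or state that were at or near 0. Each line gives 30 bases with the word in capitals.
PIP, 3346 FPKM (chr7:143132032-143132061, plus strand): tccttgatcaatctgTATATAagaaatgtg
PPIA, 1813 FPKM (chr7:44796636-44796665, plus strand): ggggccgaacgtggTATAAAaggggcggga
S100A9, 204 FPKM (chr1:153357809-153357838, plus strand): ccagtcaggagctgccTATAAAtgccgagc
AREG, 170.0 FPKM (chr4:74445091-74445120, plus strand): ccctcccggctgagccTATAAAgcggcagg
CSN2, 0 FPKM (chr4:69965744-69965773, minus strand): tgtcattaaatatagTATATAaacagtcac
ACTA1, 0.0218 FPKM (chr1:229434110-229434139, minus strand): aatgcccgcgggcTATATAaaacctgagca

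One of these words was found at 6.92% of all protein-coding genes with 1 promoter and at 14.4% of those listed at 0. In the set the share was 3.17%, 1.68%, 2.001% and 6.94% from the lowest to the highest bin, and 15 of 63 (23.8%) among the 100 highest. The word was therefore found more often at both ends of the level range than in its middle. It was found at 14 of 35 genes of the apocrine and secreted list with 1 promoter. Among those in the set it was found at 7 of 18. Of keratin genes with 1 promoter, 20 of 32 had the word (62.5%). That list was mostly low, with 47 of 55 keratins under 1 FPKM, and its share within the set was not computed. The promoters of KRT19 and KRT18 were not examined. The CpG ratio, the observed over the expected frequency of CG in the 300 bases of the promoter, had a median of 0.278 at genes listed at 0. It was 0.833, 0.879, 0.880 and 0.883 from the lowest to the highest bin of the members. Promoters with a word could still have a high CpG ratio, as at PPIA (1.13), the cyclophilin A gene, or a low one, as at PIP (0.198) and S100A9 (0.218). The median coding length was 1650, 1608, 1347 and 975 nucleotides over the same bins and 612 nucleotides among the 100 highest. FPKM is divided by length, so how much of that order comes from the scaling was not tested. Ribosomal protein members had a median of 469.5 nucleotides, and the 100 highest were not examined without them.

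**Figure D2:**
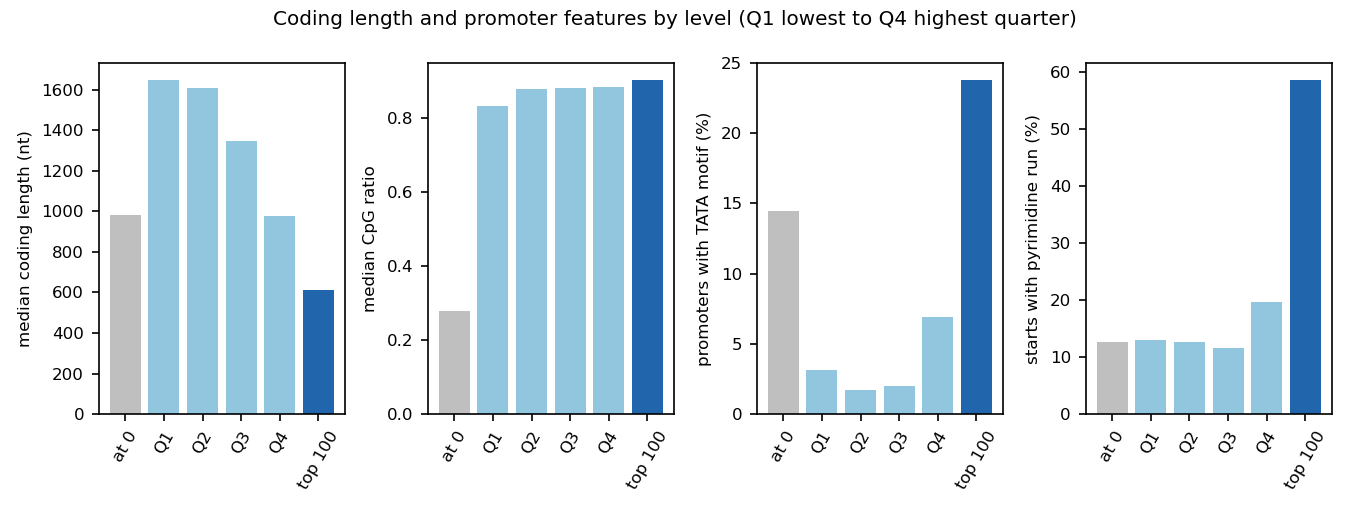
Median coding length (nucleotides), median CpG ratio, percent of promoters with a TATA word and percent of starts with a pyrimidine run, for protein-coding genes listed at 0, the 4 equal bins of the members by level (Q1 lowest) and the 100 highest. Coding length was lowest among the 100 highest (612 nucleotides), the CpG ratio was lowest at genes listed at 0 (0.278), and both motif shares were highest among the 100 highest (23.8% and 58.7%).

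The luminal identity list held 30 genes, of which 24 met the rule (80.0%), with a median of 30.4 FPKM over all 30. Beyond keratins, the highest was XBP1 at 753 FPKM (499 to 1006), the transcription factor of the unfolded protein response and of secretory cells. CD24, a surface glycoprotein of luminal cells, stood at 262 FPKM (177 to 347). TRPS1, a GATA-type repressor found in most breast carcinomas, was at 184 FPKM (98.1 to 269). The interval of XBP1 lay above that of CD24, and of the 24 neighbouring pairs at 1 FPKM or more this was the 1 pair that did not overlap. Further down came the epithelial factor EHF at 172 FPKM, SPDEF at 78.4 FPKM, FOXA1 at 65.7 FPKM (35.3 to 96.2) and ELF5, a factor of the alveolar lineage, at 50.3 FPKM. The list also had silent members: KIT, the receptor of luminal progenitors, was at 0, and TFAP2B was at 0.0613 FPKM while its relative TFAP2C was at 31.8 FPKM.

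Keratins spanned the range from 0 to the highest levels. Of 55 genes, 8 met the rule (14.5%), 24 were at 0 and the median was 0.0406 FPKM. After KRT19, KRT8 and KRT18 came KRT7 at 111 FPKM (68.6 to 153), a keratin of ducts, then KRT23 at 83.1 FPKM and KRT10 at 61.3 FPKM. KRT80 stood at 11.2 FPKM and KRT15 at 4.86 FPKM. The interval of KRT18 did not overlap that of KRT7, a step of 18.0-fold between the leading simple-epithelial keratins and the next, and KRT10 did not overlap KRT80. The other 47 genes were all under 1 FPKM, with KRT86 the highest at 0.801 FPKM.

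**Figure D3:**
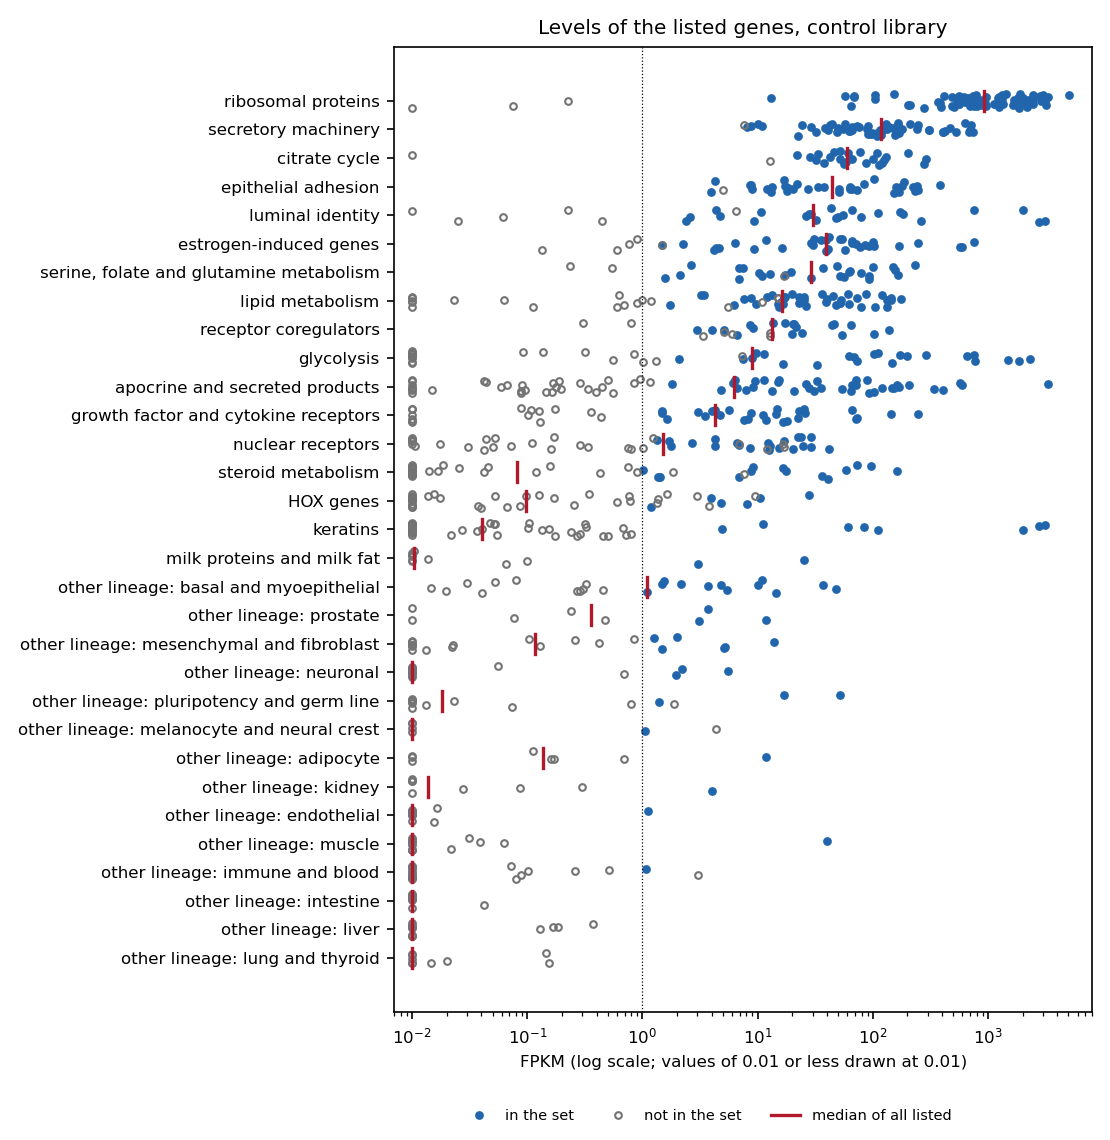
FPKM of every gene of the lists drawn, which leave out the common reference and mitochondrially encoded genes (log scale, values of 0.01 or less drawn at 0.01), with 1 line of points per list, filled where the gene met the rule, and the median of the list as a red bar. Ribosomal proteins (median 921 FPKM) and secretory machinery (118 FPKM) have the highest medians of the lists drawn, keratins run from 0 to 3152 FPKM, and lists of other lineages lie mostly below the dotted line at 1 FPKM.

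Nuclear receptors, the family of ligand-controlled transcription factors, had low to moderate levels. Of 48 genes, 21 met the rule (43.8%, against 51.1% of all protein-coding genes), 6 more were at 1 FPKM or above with a lower bound of 0, 15 were above 0 and under 1 FPKM, and 6 were at 0. The highest was PGR. Next came the retinoic acid receptor RARA at 29.3 FPKM (17.5 to 41.2) and its partner RXRA at 29.1 FPKM (17.2 to 41.1). NR2F6, an orphan receptor, was at 24.9 FPKM (12.2 to 37.6), RARG at 23.6 FPKM (12.5 to 34.7) and ESRRA, the estrogen-related receptor of mitochondrial genes, at 22.6 FPKM (6.36 to 38.8). NR1H2, the oxysterol receptor LXR beta, stood at 20.3 FPKM. Genes between 5 and 20 FPKM that met the rule included NR1H3 at 15.2 FPKM, THRA at 12.9 FPKM, NR2C1 at 12.7 FPKM, the vitamin D receptor VDR at 12.2 FPKM, NR2F2 at 8.60 FPKM, THRB at 6.94 FPKM and NR4A1 at 6.56 FPKM. None of the 26 neighbouring pairs in the order was separated by its intervals.

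Within the steroid receptors the order was wider. PGR was 9.74-fold above NR3C1, the glucocorticoid receptor, listed at 4.26 FPKM (2.01 to 6.50), and the intervals did not overlap. NR3C2, the mineralocorticoid receptor, was at 0.751 FPKM. PGR and ESR1 could not be separated, since their intervals overlapped. ESR2, the second estrogen receptor, was at 0.0528 FPKM (0 to 0.770). Low members of the set were PPARA at 2.72 FPKM, PPARD at 1.76 FPKM, NR2F1 at 1.70 FPKM and NR6A1 at 1.33 FPKM. Besides ESR1, the genes kept out by a lower bound of 0 were NR1D2 at 16.5 FPKM, RXRB at 12.1 FPKM, NR2C2 at 6.88 FPKM, NR1D1 at 1.23 FPKM and RORA at 1.02 FPKM. RXRG, NR1I2, HNF4A, NR2E1, NR0B1 and NR0B2 were listed at 0.

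**Figure D4:**
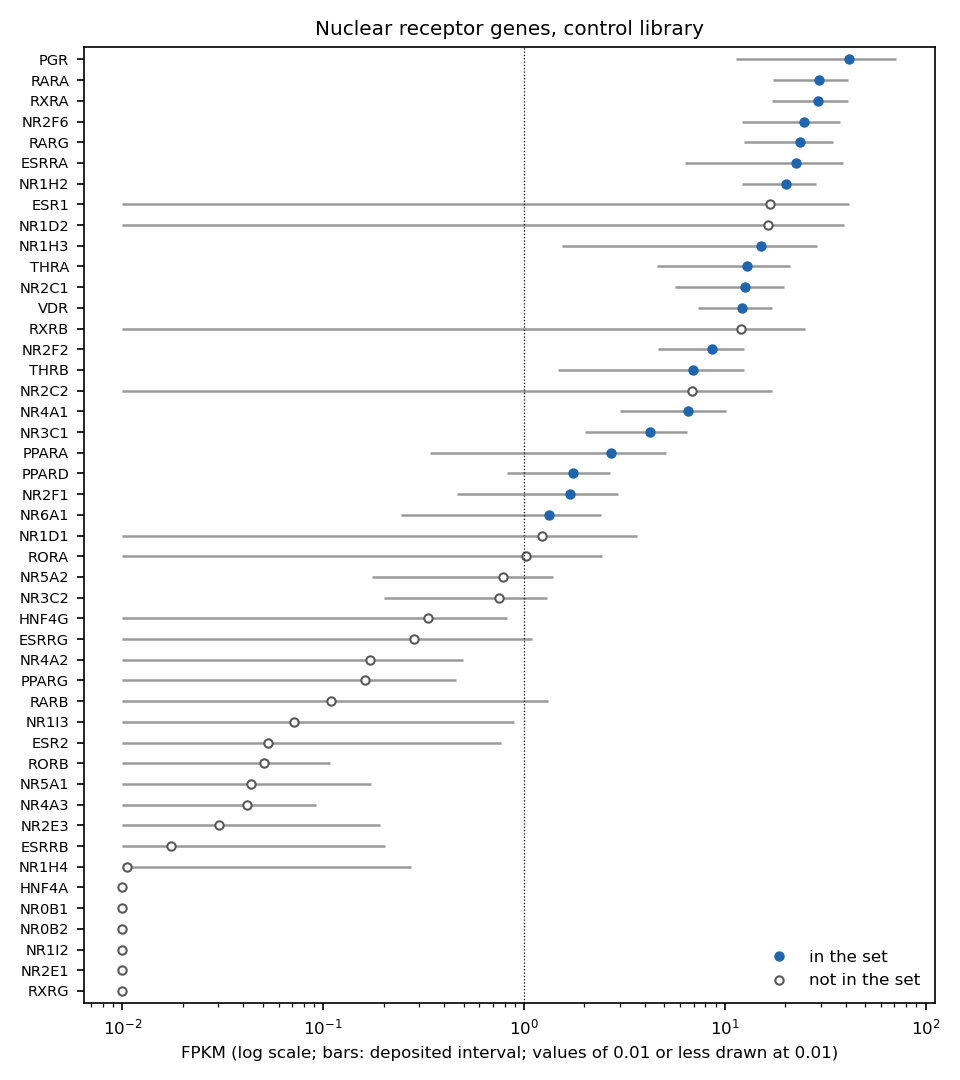
FPKM of 46 of the 48 nuclear receptor genes (log scale, values of 0.01 or less drawn at 0.01) in order of level, with deposited intervals as bars, filled points for genes that met the rule and a dotted line at 1 FPKM. PGR is highest at 41.4 FPKM, the bar of ESR1 (16.8 FPKM) runs down to 0, and neighbouring bars overlap throughout.

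Of 26 matched coregulator genes, which link receptors to chromatin, 19 met the rule (73.1%, against 51.1% of all protein-coding genes). Their median was 13.3 FPKM over all 26. The highest were NCOA4 at 137 FPKM, a coactivator also known as the ferritin autophagy receptor, and the arginine methyltransferase PRMT1 at 102 FPKM. The histone deacetylases HDAC1, HDAC3 and HDAC2 followed at 65.1, 53.6 and 44.3 FPKM, with the prohibitin PHB2 at 45.9 FPKM between the last of them. Corepressors had a median of 20.6 FPKM over 11 genes and coactivators of 5.96 FPKM over 15.

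Of 38 genes known to be induced by estrogen in breast cancer cells, 33 met the rule (86.8%), with a median of 39.0 FPKM. XBP1 led, followed by AGR2 at 598 FPKM (369 to 826), a disulfide isomerase of mucin-producing cells, and CTSD at 567 FPKM (357 to 777), the lysosomal protease cathepsin D. SLC9A3R1, a scaffold of apical transporters, was at 246 FPKM, the EGF receptor ligand AREG at 170.0 FPKM and IGFBP4, an IGF binding protein, at 102 FPKM. The level varied widely within the list. GREB1, a cofactor of the estrogen receptor, was at 39.1 FPKM, whereas the trefoil peptide TFF1 was at 6.39 FPKM (2.62 to 10.2) and its relative TFF3 at 65.7 FPKM. BCL2 was lowest at 0.134 FPKM. A level in 1 state of the cells shows no response to estrogen, and the hormone content of the medium is not given in the sources used here.

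Receptors for growth factors and cytokines had a median of 4.28 FPKM, and 27 of 41 met the rule (65.9%). PRLR, the prolactin receptor, was highest at 246 FPKM, with a wide interval of 44.9 to 447 that allows ranks 101 to 3125. DDR1, a collagen receptor of epithelia, was at 144 FPKM (80.7 to 208). ERBB3 at 73.6 FPKM (27.8 to 119) and ERBB2 at 71.2 FPKM (37.4 to 105), which pair on ligand binding, could not be separated. EGFR, chosen as a relative of these after its value was seen, was at 1.48 FPKM (0.565 to 2.397), 48.0-fold below ERBB2 with no overlap. IL6ST, the shared subunit of interleukin 6 type receptors, was at 65.4 FPKM and the TGF-beta receptor TGFBR1 at 26.0 FPKM. Its partner TGFBR2 was at 0.00644 FPKM. KIT, PDGFRA and NTRK3 were at 0.

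The apocrine and secreted list held 68 genes, of which 37 met the rule (54.4%, against 51.1% of all protein-coding genes), with a median of 6.28 FPKM. Its members together held 1.37% of the protein-coding FPKM. PIP alone was 5.60-fold above the next of the list, AGR2, with no overlap of intervals. The list does not hold every secreted product, so this gap and share are those of the list. MGP, a secreted protein outside it, was at 2089 FPKM (1219 to 2959), and its interval overlapped that of PIP. Below CTSD came CLU, the extracellular chaperone clusterin, at 405 FPKM (166 to 643), IGFBP2 at 343 FPKM (226 to 460) and S100A9, a calcium-binding protein of inflamed epithelia and myeloid cells, at 204 FPKM (133 to 275). The apocrine and secretoglobin role group was uneven, since 4 of 13 genes met the rule and the group median was 0.335 FPKM. Apart from PIP, the mammary secretoglobin SCGB2A2 was at 0.0879 FPKM and MUCL1 at 0.394 FPKM, both often used as breast markers and chosen after their values were seen. Secreted growth factors and their binding proteins had the highest role median, 49.99 FPKM over 14 genes.

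Of 11 milk genes, 9 were under 1 FPKM and 2 met the rule: PLIN2, the lipid droplet coat protein, at 25.3 FPKM and MFGE8, a milk fat globule protein, at 3.06 FPKM. CSN1S1, CSN2, CSN3 and LALBA, the casein and alpha-lactalbumin genes, were at 0, and the highest of the 6 casein or whey genes, PAEP, was at 0.1002 FPKM. The level of PRLR given above, with its wide interval, stood beside casein genes at 0. Caseins are classic targets of prolactin. The hormone content of the medium is not given in the sources used here, so no response or lack of it can be read from these levels.

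The machinery that folds, glycosylates and carries secreted proteins was present almost in full. Of 65 genes, 64 met the rule (98.5%), with a median of 118 FPKM, and they held 2.24% of the protein-coding FPKM. Endoplasmic reticulum chaperones led: calnexin (CANX) at 741 FPKM (396 to 1086), calreticulin (CALR) at 716 FPKM (475 to 957) and HSP90B1 at 703 FPKM (456 to 950). P4HB, a disulfide isomerase, was at 685 FPKM (392 to 978), the cargo receptor TMED10 at 635 FPKM (335 to 936) and the prolyl isomerase PPIB at 525 FPKM (355 to 696). None of these 6 could be ordered by their intervals. Medians by role were 167 FPKM for glycosylation, 133 FPKM for translocation, 132 FPKM for folding and 66.2 FPKM for vesicle traffic. The gene outside the set was SEC61A2, a second form of the translocon subunit, at 7.68 FPKM with a lower bound of 0.

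Glycolysis uses, at most of its steps, 1 of several isozymes, and most steps with several forms had 1 whose interval lay above those of the others. Of 39 genes, 22 met the rule (56.4%, against 51.1% of all protein-coding genes) and 9 were at 0, with a median of 8.87 FPKM over all 39 and 107 FPKM over the members. These forms, with the single genes listed for their steps, GPI and TPI1, were HK1 at 112 FPKM (63.1 to 160), GPI at 197 FPKM, ALDOA at 1845 FPKM (1138 to 2552), TPI1 at 289 FPKM and GAPDH. Then came PGK1 at 758 FPKM (382 to 1134), PGAM1 at 103 FPKM, ENO1 at 1485 FPKM (981 to 1990), PKM at 777 FPKM (511 to 1044) and LDHA at 658 FPKM (428 to 888). LDHB was at 2.09 FPKM (0.749 to 3.44), 314-fold below LDHA with no overlap. LDHA makes the subunit of muscle and of fermenting cells, and LDHB that of heart. LDHD, the enzyme for D-lactate, was at 16.5 FPKM.

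HK2 was at 7.43 FPKM (3.70 to 11.2), 15.001-fold below HK1, and ALDOC at 148 FPKM (23.2 to 272), 12.5-fold below ALDOA, both with no overlap. At phosphofructokinase, PFKP at 172 FPKM (88.9 to 254), PFKL at 68.8 FPKM (44.9996 to 92.6) and PFKM at 61.7 FPKM (20.01 to 103) overlapped, so no leading form could be told. ENO2 at 7.27 FPKM, 204-fold below ENO1, ENO3 at 1.303 FPKM and PGAM2 at 1.01 FPKM had lower bounds of 0. HK3, HKDC1, GAPDHS, PGK2, PKLR, LDHC and the transporter SLC2A2 were among the genes at 0. Among glucose transporters SLC2A1 was at 32.9 FPKM (17.5 to 48.2), with an interval that overlapped that of SLC2A10 at 11.5 FPKM, and SLC2A8 was at 9.71 FPKM. Of the lactate transporters the highest was SLC16A3 at 73.1 FPKM (39.3 to 107), 8.24-fold above SLC16A1 at 8.87 FPKM (5.41 to 12.3) with no overlap.

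**Figure D5:**
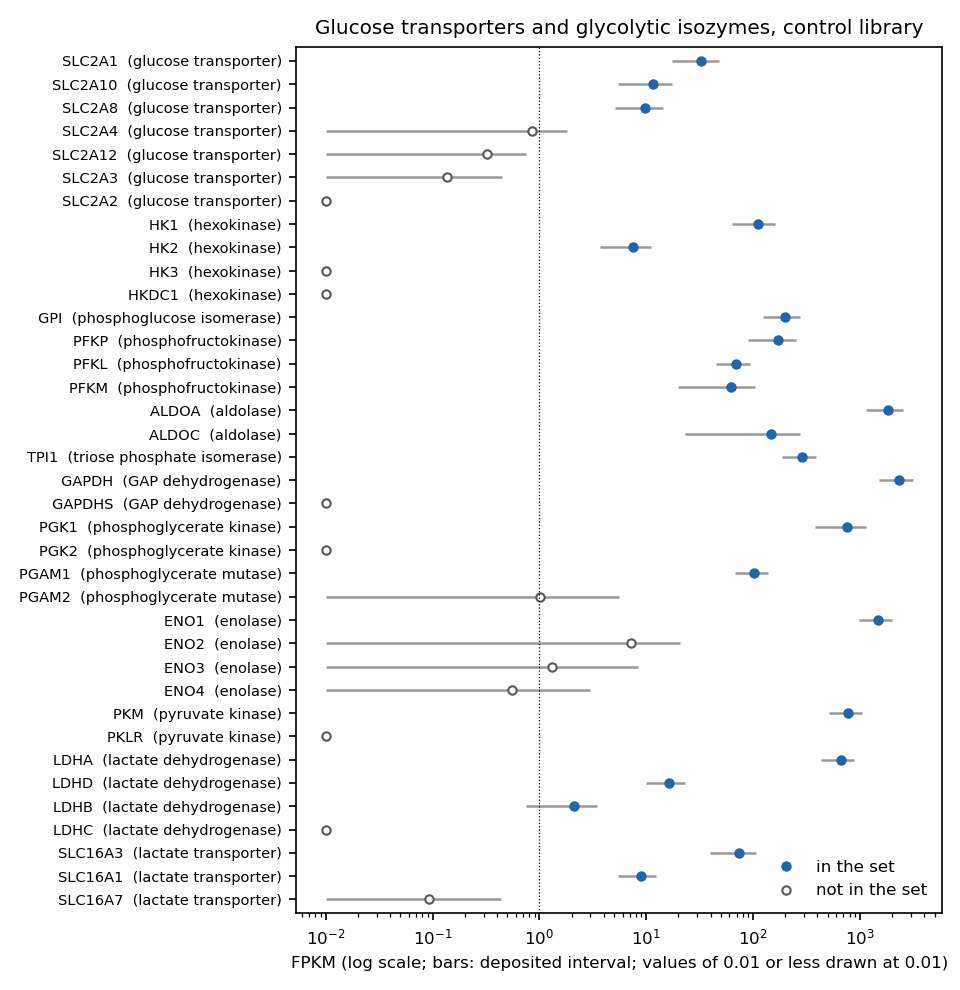
FPKM of 37 of the 39 listed glucose transporters, glycolytic isozymes and lactate transporters (log scale, values of 0.01 or less drawn at 0.01) in the order of the pathway, with deposited intervals as bars and filled points for genes that met the rule. Each step with several forms has 1 form clear of the next, as LDHA (658 FPKM) is of LDHB (2.09 FPKM), except phosphofructokinase and the glucose transporters, where SLC2A1 (32.9 FPKM) just overlaps SLC2A10 (11.5 FPKM).

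The citrate cycle, the mitochondrial pathway that oxidises acetyl groups, was covered almost in full. Of 26 genes, 24 met the rule (92.3%), with a median of 59.6 FPKM. MDH2, malate dehydrogenase, was highest at 287 FPKM (168 to 406), then IDH2 at 280.2 FPKM (187 to 374) and the pyruvate dehydrogenase subunit PDHA1 at 204 FPKM (106 to 302). SDHD at 130 FPKM, the pyruvate carrier subunit MPC2 at 126 FPKM and SDHB at 121 FPKM completed the 6 highest. All 18 enzymes of the cycle itself were in the set, at 21.9 to 287 FPKM. The 2 genes outside were PDHA2, the testis form, at 0, and PC, pyruvate carboxylase, at 12.8 FPKM with a lower bound of 0. The cycle held 0.428% of the protein-coding FPKM and glycolysis 1.76%.

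Genes encoded by the mitochondrial genome, which is transcribed as long precursors, differed widely from each other. The cytochrome oxidase subunit MT-CO3 was at 898 FPKM (600.0 to 1197), the complex I subunit MT-ND3 at 693 FPKM (456 to 929), MT-CO1 at 528 FPKM (358 to 699) and MT-CO2 at 326 FPKM (217 to 435). MT-ND4L, also of complex I, was at 117 FPKM and MT-ATP6, of the ATP synthase, at 63.8 FPKM with a lower bound of 0. At the other end MT-ND2 stood at 8.45 FPKM (4.38 to 12.5) and MT-ND1 at 8.24 FPKM (4.17 to 12.3), 109-fold below MT-CO3. MT-ND6, from the other strand, was at 0.910 FPKM. The large ribosomal RNA MT-RNR2 was at 135 FPKM, and all 22 mitochondrial tRNA genes were listed at 0. These tRNA genes are 59 to 75 nucleotides long. Whether RNAs so short could enter the library is not given in the sources used here, so absence cannot be read from these values. The 10 protein-coding genes in the set held 0.522% of the protein-coding FPKM. Near-identical nuclear copies of these genes exist, and whether reads were lost to them was not tested.

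Lipid genes had a median of 16.3 FPKM, and 42 of 60 met the rule (70.0%, against 51.1% of all protein-coding genes). SCD, which makes monounsaturated fatty acids, was highest at 175 FPKM (119 to 232). Below it were the sterol enzyme FDPS at 144 FPKM (81.7 to 206), the elongase ELOVL5 at 133 FPKM, the citrate lyase ACLY at 132 FPKM and ACADVL, of fatty acid oxidation, at 121 FPKM. Cholesterol synthesis and uptake was the fullest role group, with 16 of 17 genes in the set and a median of 39.1 FPKM. Uptake, storage and oxidation was the thinnest, with 14 of 24 in the set and a median of 5.48 FPKM. CD36 was at 20.1 FPKM in that group, whereas LPL, FABP3, FABP5 and FABP7 were listed at 0.

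Steroid metabolism was divided by role. None of the 8 synthesis genes was in the set (0 of 8), 6 were at 0, among them aromatase (CYP19A1), and the highest was at 0.0187 FPKM. Interconversion had 9 of 20 genes in the set, where 51.1% of all protein-coding genes met the rule. HSD17B10 was highest at 163 FPKM (108 to 218), then HSD17B4 at 96.4 FPKM (43.8 to 149) and HSD17B12 at 73.1 FPKM (47.1 to 99.1). These hydroxysteroid dehydrogenases also act on fatty acids or branched-chain substrates. CYP1B1, which hydroxylates estradiol, was at 40.7 FPKM and HSD17B8 at 36.1 FPKM. HSD17B1, which makes estradiol from estrone, was at 7.59 FPKM with a lower bound of 0, and the sulfatase STS at 1.35 FPKM.

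Serine, folate and glutamine metabolism had 26 of 29 genes in the set (89.7%) and a median of 28.8 FPKM. Glutamine synthetase (GLUL) was highest at 232 FPKM (117 to 347). The mitochondrial folate enzymes MTHFD2 at 167 FPKM (98.3 to 235) and SHMT2 at 157 FPKM (97.4 to 217) lay 2.98-fold and 3.25-fold above their cytosolic relatives MTHFD1 and SHMT1, with no overlap. The amino acid transporter subunit SLC3A2 was at 149 FPKM, the glutamine transporter SLC38A2 at 100.4 FPKM and the transaminase GOT1 at 92.6 FPKM. SLC7A11, the cystine transporter, was at 1.58 FPKM.

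Epithelial adhesion genes were in the set in 35 of 36 cases (97.2%), with a median of 44.1 FPKM. SPINT2, an inhibitor of surface proteases, was at 381 FPKM (232 to 530), the tight junction protein CLDN4 at 247 FPKM (167 to 328) and the junction protein plakoglobin (JUP) at 243 FPKM (147 to 340). E-cadherin (CDH1) stood at 234 FPKM (148 to 320), beta-catenin (CTNNB1) at 225 FPKM and alpha-catenin (CTNNA1) at 186 FPKM. The gene outside the set was OVOL2, at 4.97 FPKM with a lower bound of 0. N-cadherin (CDH2), of mesenchymal and neural cells, was at 0.104 FPKM, and ZEB1, a repressor of epithelial genes, was at 0.0223 FPKM.

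The 14 lists of other lineages held 172 distinct genes with a median of 0.0181 FPKM. Of these, 74 were at 0 and 136 under 1 FPKM, and 33 (19.2%) met the rule, against 51.1% of all protein-coding genes. No liver, intestine, or lung and thyroid gene met it (0 of 12, 0 of 8 and 0 of 9), and the highest of these was albumin (ALB) at 0.369 FPKM. Of the 33, 12 were from the basal and myoepithelial list, where 12 of 23 were in the set (52.2%), close to the share of all protein-coding genes. P-cadherin (CDH3) was at 48.1 FPKM (27.6 to 68.7), 4.86-fold below CDH1, and the laminin receptor subunit ITGB4 at 36.6 FPKM (15.3 to 58.0). CD44 was at 14.5 FPKM, ITGA6 at 10.8 FPKM, ACTA2 at 9.99 FPKM and TRIM29 at 5.45 FPKM. The keratins of that list, KRT5, KRT6A, KRT6B, KRT6C, KRT14 and KRT17, were all under 1 FPKM, at 0.0406 to 0.452 FPKM.

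In the mesenchymal list, 6 of 20 genes met the rule. Fibronectin (FN1) was at 13.95 FPKM (6.41 to 21.5), COL1A1 at 5.16 FPKM (0.223 to 10.1), COL6A1 at 5.10 FPKM, THY1 at 1.99 FPKM, vimentin (VIM) at 1.47 FPKM (0.454 to 2.48) and SNAI1 at 1.252 FPKM. COL1A1 stood alone among the listed fibrillar collagens, since its partner COL1A2 was at 0.0131 FPKM and COL3A1 at 0. PRAME, an antigen of testis and many tumours, was at 52.0 FPKM (33.2 to 70.8), and LIN28A, an RNA-binding protein that blocks let-7 maturation in embryonic cells, at 17.1 FPKM (10.9 to 23.2). LIN28B was at 0.0233 FPKM, and the pluripotency factors POU5F1 and NANOG were at 0. MAGEA6 was the third member of that list in the set, at 1.40 FPKM.

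TNNI3, cardiac troponin I, was at 39.98 FPKM (20.8 to 59.1) as the 1 muscle gene of 13 in the set, while MYOD1, MYH6, MYH7 and DES were at 0. Its locus holds 6 listed genes, and the share of neighbouring transcripts in its value was not tested. Among prostate genes TMPRSS2, an androgen-induced protease, was at 11.8 FPKM (6.36 to 17.2) and SLC45A3 at 3.11 FPKM, while KLK3, the prostate-specific antigen gene, was at 0. CEBPA, of the adipocyte list, was at 11.9 FPKM. The neuronal genes SYT1, SYP and MAP2 were at 5.53, 2.20 and 1.97 FPKM, and WT1 of the kidney list at 3.99 FPKM. ESAM at 1.12 FPKM, CD14 at 1.07 FPKM and MITF at 1.048 FPKM lay close to the threshold.

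HOX genes, which record position along the body axis, were mostly off. Of 39 genes, 6 met the rule (15.4%) and 11 were at 0, with a median of 0.0978 FPKM. The C cluster was the most active, with 6 of 9 genes at 1 FPKM or more and a median of 3.82 FPKM. HOXC10 was at 27.98 FPKM (12.8 to 43.2), HOXB2 at 10.5 FPKM (5.03 to 15.95), HOXC11 at 8.04 FPKM, HOXC13 at 4.83 FPKM, HOXB7 at 3.93 FPKM and HOXA5 at 1.19 FPKM. HOXC9, HOXC4 and HOXC6 were at 9.50, 3.82 and 2.97 FPKM with lower bounds of 0. In the D cluster no gene (0 of 9) reached 1 FPKM, and the highest was at 0.253 FPKM.

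Histone genes of the clustered families, whose messages mostly lack a poly(A) tail, were prominent. Of 71, 52 met the rule (73.2%, against 51.1% of all protein-coding genes). The highest level was 924 FPKM, for the linker histone HIST1H1C, and the 52 held 2.51% of the protein-coding FPKM. Common reference genes, often used to scale other measurements, spread widely in level. All 14 met the rule, from RPLP0 at 2877 FPKM, GAPDH, ACTB, EEF1A1 at 1856 FPKM, PPIA at 1813 FPKM and B2M at 1499 FPKM down to TBP at 5.19 FPKM.

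The set held 339 genes of the long noncoding types of the annotation. These types include RNU11, of 131 nucleotides, which stood 7th among the 339 at 164 FPKM. The share of all listed long noncoding genes that met the rule was not computed. MALAT1, a nuclear speckle RNA, was highest at 587 FPKM (139 to 1035). ZFAS1 at 417 FPKM (190 to 645) and GAS5 at 303 FPKM (184 to 422), hosts of small nucleolar RNAs, followed with LRRC75A-AS1 at 415 FPKM (275 to 556) between them. DSCAM-AS1, known from estrogen receptor-positive breast cancer, was at 79.7 FPKM (49.997 to 109). ERINA, listed under the symbol LINC00992 (chromosome 5, 117415509 to 117546298, GRCh38), was at 63.4 FPKM (38.4 to 88.5), the 16th highest of them. Its interval overlapped that of DSCAM-AS1.

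The lower bound removed 1498 protein-coding genes that had at least 1 FPKM, of which 378 had at least 10 FPKM. The highest were TSTD1 at 147 FPKM, TBL1XR1 at 139 FPKM, PLS3 at 124 FPKM, ATOX1 at 121 FPKM, MARS at 107 FPKM, TKFC at 106 FPKM, SRP19 at 93.1 FPKM, VMP1 at 86.7 FPKM, HSPE1 at 85.8 FPKM and NMT1 at 84.9 FPKM. They include a methionyl-tRNA synthetase (MARS), a signal recognition particle subunit (SRP19) and the mitochondrial chaperonin partner HSPE1. Each lay in a locus with 3 or more listed genes. Among protein-coding genes of at least 1 FPKM, a lower bound of 0 was given to 59 of 3686 (1.601%) where the locus held 1 gene. The share was 145 of 2382 (6.09%) with 2 genes and 1294 of 5507 (23.5%) with 3 or more. By the number of annotated transcripts it moved less, from 11.2% with 1 transcript to 13.9% with 10 or more. A lower bound of 0 thus went more often with loci shared by several genes, and ESR1 lies in such a locus. What sets the bound was not tested. Just inside the threshold of 1 FPKM were IL12A at 1.0002, VMO1 at 1.0013 and BATF2 at 1.0043 FPKM, and just outside EFR3B at 0.9992, ANKRD36 at 0.9980 and C19orf54 at 0.9978 FPKM.

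By chromosome, the share of protein-coding genes in the set ran from 40.7% on X (342 of 840) to 56.5% on chromosome 9 (434 of 768), with 76.9% of the 13 mitochondrial genes above both.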

How the data were processed

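Per the file headers, the authors deposited FPKM per gene and library, with a lower and an upper confidence bound and a status. The level of confidence is not given in the sources used here. Of tools, the submitters' processing notes name STAR and RSEM, with build GRCh38. The kit, strand setting, read length, annotation and any further scaling: not given in the sources used here.

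The control column was used without transformation. Gene types, lengths and coordinates came from GENCODE release 29 (57435 of 58039 genes matched, 99.0%), and promoters from RefSeq (GRCh38.p14), each 250 bases before to 50 bases after the start. The genes named were the 30 highest, nuclear receptors, glycolytic isozymes and keratins at 1 FPKM or more, the 6 highest of each other list, members of other-lineage lists in the set (at most 6 per list), 3 genes on each side of 1 FPKM, the 10 highest with a lower bound of 0, the 5 markers and LINC00992. Genes outside this rule were chosen after their values were seen. Some genes that the rule names are not reported here. The set, the 33 lists and the markers were chosen with earlier results of these data known. Of the listed symbols, 1 had no match. The plan named protein length, and coding length was used in its place. Scripts were tested on simulated data (Python 3.11.15, numpy 2.4.6, pandas 2.3.3, matplotlib 3.10.9).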

Additional observations from a re-analysis of the deposited data

How the results depend on the processing

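The set held 10764 genes, 11322 with a minimum of 0.5 FPKM, 10008 with a minimum of 2 FPKM, 12998 with no condition on the lower bound and 9184 with a lower bound of at least 1. Genes on the lists numbered 518 of 895 in the set, and 482 to 557 under these settings. The share of the 10 highest protein-coding genes was 4.57% of the FPKM of the set and 6.35% of the protein-coding FPKM. Of 367 values over the settings tried, 60 moved by more than 1.5 times, and 30 of those came from rescaling every level by 1.88. Without the condition on the lower bound, HOX genes in the set went from 6 to 12. The choice of 2 level bins in place of 4 left the CpG ratio of the top bin at 0.882 against 0.883. The TATA share of the top bin was 4.47% with 2 bins against 6.94% with 4. The share with a pyrimidine run was 15.6% against 19.7%. Neither share was among the 367 values. No paired analysis was possible because the description rests on 1 control library and no test. With no replicate, levels have no error between cultures, and low genes rest on few fragments.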
